A study of Mus musculus with 8 samples.

Results

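ATP-binding cassette (ABC) transporters of the ABCA, ABCB, ABCC and ABCG families, organic anion transporting polypeptides (SLCO) and the SLC22 family of organic ion transporters were examined in mouse liver RNA-seq. The members were all genes annotated as protein-coding in GENCODE M21 whose symbol starts with Abca, Abcb, Abcc or Abcg, with Slco, or with Slc22a, followed by a number. This gave 81 genes of the 45706 identifiers in the count table, namely 16 *Abca*, 10 *Abcb*, 10 *Abcc*, 6 *Abcg*, 14 *Slco* and 25 *Slc22a* genes. Livers came from male mice, given by the labels as C56B6/J and in the study's methods as C57BL/6J. They were injected in the tail vein at 6 weeks of age with an AAV2/8 virus whose CBA promoter, active in many cell types, drives GFP and a mirE/shRNA, a short hairpin set in a microRNA backbone. In 4 mice the hairpin was directed against *Srsf10*, a splicing and polyadenylation factor (*Srsf10-kd*), and in 4 mice it was a control hairpin (*Ctrl*), so that both groups carry virus and GFP. From 4 weeks later both groups were fed a diet with 60% of calories from fat for 12 weeks, and no liver from mice on another diet is compared here.

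ABC transporters use ATP to move substrates out of a cell or across an organelle membrane. SLCO and SLC22 proteins mostly bring organic anions, cations and carnitine into cells. In the hepatocyte the uptake carriers sit on the sinusoidal side facing the blood, and a set of ABC pumps on the canalicular side secretes bile salts, phospholipid, sterols and conjugates such as bilirubin glucuronide into bile. Other ABC pumps on the sinusoidal side return conjugates to the blood, and *Abca1* loads cholesterol and phospholipid onto apolipoprotein A-I.

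The level of the targeted gene did not separate the groups. Expression is given as CPM, a gene's share of all counts in a liver scaled to a common library size that TMM normalization adjusts for composition. *Srsf10* was at 34.3, 34.0, 41.0 and 36.5 CPM in livers labelled *Srsf10-kd* and at 31.6, 33.7, 35.3 and 30.9 CPM in *Ctrl* livers, a log2 fold change of 0.15 (standard error 0.10). The fold change is of the livers labelled *Srsf10-kd* over *Ctrl*, and its standard error is taken from the fitted model. The direction of each comparison therefore rests on the labels, and the first group is called the livers labelled *Srsf10-kd* throughout. *Ppara*, a lipid-sensing receptor that the study follows, was at 77.8 to 88.4 CPM against 168 to 234 CPM (log2 fold change −1.24, adjusted p = 0.0166 in edgeR's quasi-likelihood test). Total counts were 50456404 to 59697241 per liver. *Srsf10-kd* 3 stood apart on the first principal component, which held 44.8% of the variance, at 67.4 against −41.8 to 11.5 in the other 7 livers. Counts also followed transcript length to an unequal extent, with a slope of log2 count on log2 length of −0.18 to −0.02 in the livers labelled *Srsf10-kd* and −0.03 to 0.13 in *Ctrl* livers, which overlap. The summed level of 6 hepatocyte markers overlapped between the groups, with *Alb* at 45844 to 83145 CPM over all 8 livers. The summed level of 6 cholangiocyte markers (*Krt19*, *Krt7*, *Epcam*, *Sox9*, *Spp1*, *Cftr*; none at 0) was 46.9 to 69.2 CPM in livers of the *Srsf10-kd* label and 31.8 to 39.3 CPM in *Ctrl* livers, with no overlap (exact permutation p = 0.0286, two-sided, the smallest that 4 against 4 can give). Most of this sum was *Spp1*, at 27.1 to 44.7 CPM against 17.8 to 26.6 CPM. Taken singly, *Krt7*, *Epcam*, *Sox9* and *Cftr* overlapped between the groups. In bulk liver, fewer cells of a type and less RNA per cell cannot be told apart. Summed markers of Kupffer, endothelial, stellate, and T and B cells overlapped between the groups, and the part of any of these lists in the results that follow was not tested.

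Of the 81 transporter genes, 55 passed the filter on low counts and were tested. The other 26 had at most 17 counts in any liver, 24 of them at most 5 in every liver, and 7 had no count in any of the 8 livers. These 26 hold kidney, retina, brain or testis genes such as *Slc22a6*, *Slc22a8*, *Slc22a12*, *Abca4* and *Slco1c1*. Levels of different genes were compared as CPM per kb of the longest transcript. *Slco1b2*, the liver-restricted uptake carrier for bile acids, bilirubin and many drugs, had the highest of these levels, at 476 to 619 CPM per kb over the 8 livers. It alone made up 32.8% to 40.6% of the summed level per kb of the 55 genes in the livers labelled *Srsf10-kd* and 29.8% to 31.5% in *Ctrl* livers. This share also depends on the levels of the other genes and was not tested. *Slco1b2* itself was at 1575 to 2046 CPM and 1630 to 1750 CPM, which overlap. The phospholipid floppase *Abcb4* spanned 54.4 to 219 CPM per kb and the sulfated-anion carrier *Slco1a1* 56.2 to 168 CPM per kb, so that their order among the 8 livers is not fixed. A group of lower genes overlapped one another, namely *Abcb11* (37.7 to 80.2 CPM per kb), *Abcc2* (29.6 to 85.4), *Abcc3* (32.8 to 81.5), *Slc22a18* (43.1 to 76.0), *Slc22a30* (26.4 to 60.2) and *Abca6* (11.3 to 54.0). In all, 22 genes averaged above 10 CPM per kb and 18 under 1 CPM per kb.

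**Figure D1:**
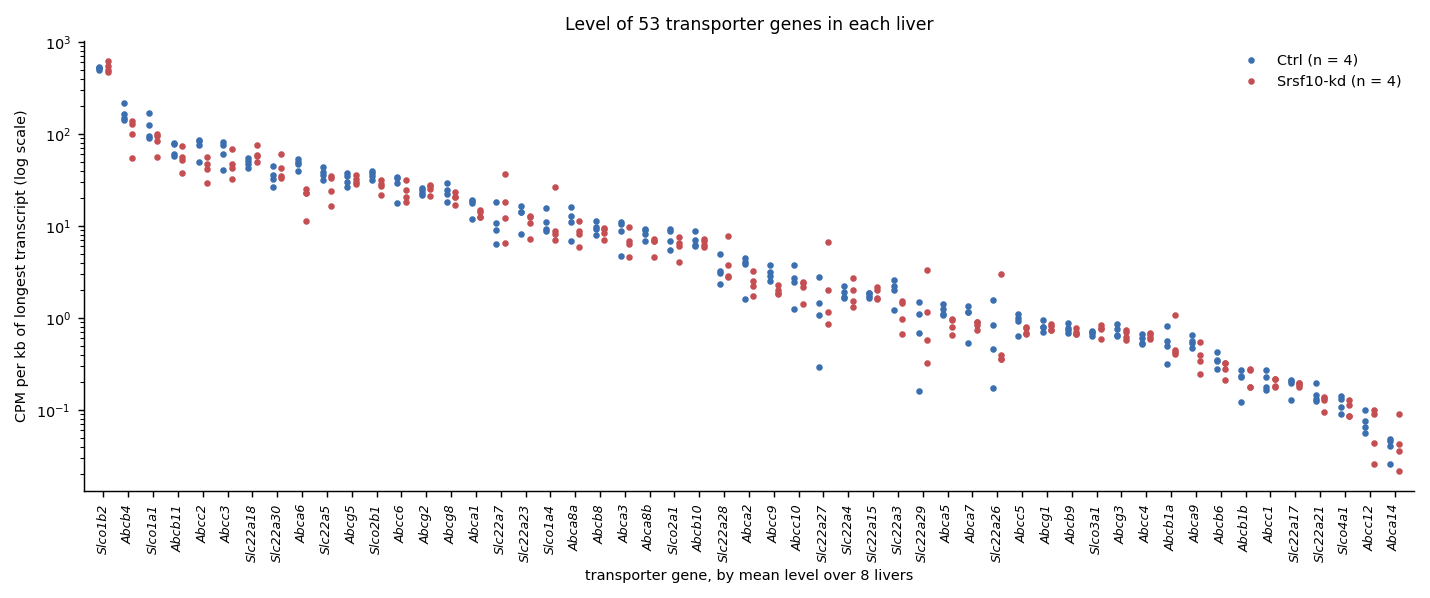
Level of 53 of the 55 tested transporter genes in each of the 8 livers, as CPM per kb of the longest transcript on a log axis, ordered by their mean, with the 4 *Ctrl* livers in blue and the 4 livers labelled *Srsf10-kd* in red. *Slco1b2* lies at the top with 476 to 619 CPM per kb, and the red points of *Abca6* lie below its blue points.

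No transporter gene passed the threshold in the comparison of the groups by edgeR's quasi-likelihood test (two-sided), at a Benjamini-Hochberg adjusted p under 0.05 over 15491 genes, where 0.0710% of all genes (11 genes) passed. At an unadjusted p under 0.05, 10 of the 55 had a lower level under the *Srsf10-kd* label and 0 a higher one. That is 18.2% of the transporter genes, against 10.6% of all genes lower and 11.2% higher at the same p. Groups did not overlap for 4 transporter genes, *Abca6*, *Abcc9*, *Abca5* and *Abcb4*, which were lower in every liver labelled *Srsf10-kd* than in any *Ctrl* liver, and for 0 in the other direction. This share of 7.27% is near the 7.53% of all genes whose groups did not overlap in that direction, with 6.73% in the other. By sign alone, 37 of the 55 were lower, 67.3% against 48.7% of all genes, and the median log2 fold change was −0.18, compared with 0.013 over all genes tested. The summed level of all 81 genes was 5206 to 5880 CPM in livers of the *Srsf10-kd* label and 6144 to 6763 CPM in *Ctrl* livers, and was not tested. A few abundant genes weigh most in this sum. *Abcb4*, *Abcc2* and *Slco1a1* had means of 430, 351 and 326 CPM against 689, 593 and 469 CPM in *Ctrl* livers. *Slco1b2*, the most abundant, had means of 1770 and 1714 CPM.

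Of 18 alternative settings, 5 called any transporter gene and the other 13 called 0; the 5 are edgeR without the filter on low counts, with 1 call (*Abca6*), and the 4 that follow. The plot of the 10 genes with an unadjusted p under 0.05 gives their values by liver. DESeq2, the tool the study used, called 3 of 56 transporter genes, where it called 5.21% of all genes, namely *Abca6* (adjusted p = 1.67e-04), *Abcc9* (0.00717) and *Abcc2* (0.0317), each lower in the livers labelled *Srsf10-kd*. limma-voom with sample quality weights called those 3 and *Abca1*, *Abca5* and *Slco2b1*, also lower, where it called 11.7% of all genes. Without *Ctrl* 3, edgeR called 3.47% of all genes and 2 transporters, *Abca6* (adjusted p = 0.0444) and *Abcc2* (0.0480). Without *Srsf10-kd* 3, it called 0.408% of all genes and 1 transporter, *Abca6* (0.0182).

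**Figure D2:**
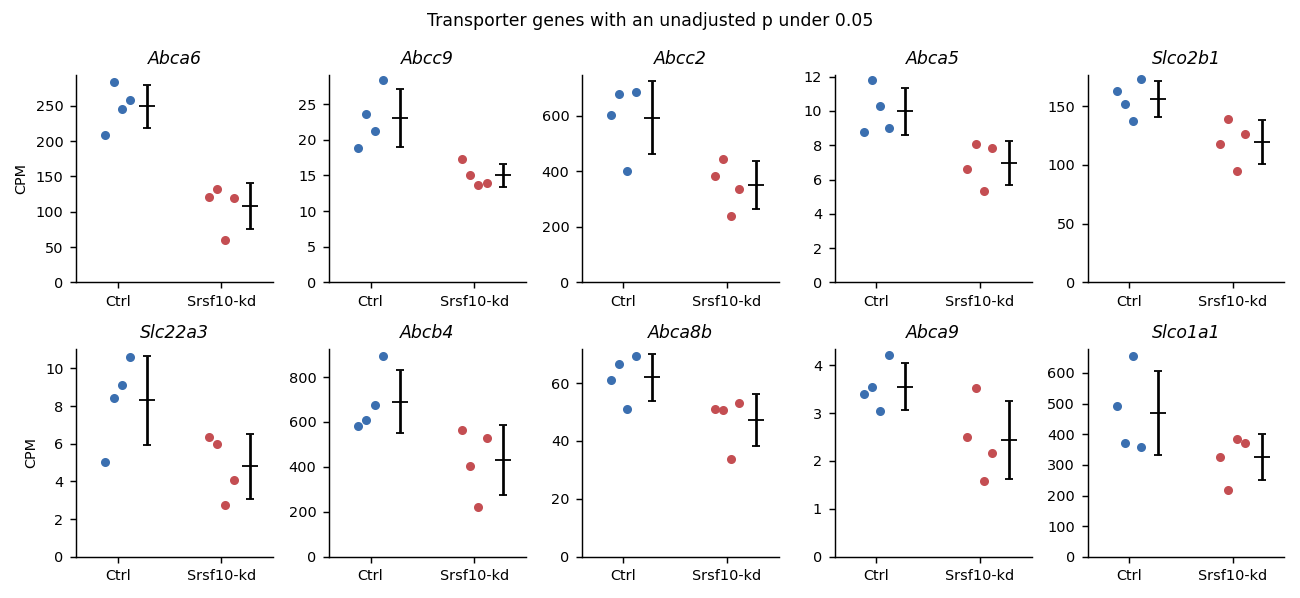
CPM in each liver for the 10 transporter genes with an unadjusted p under 0.05 in edgeR's quasi-likelihood test, in the order of that p, with the 4 *Ctrl* livers in blue and the 4 livers labelled *Srsf10-kd* in red, black marks for the mean and SD of 4 livers, and axes that start at 0. The groups do not overlap for *Abca6*, *Abcc9*, *Abca5* and *Abcb4*.

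Transporter transcripts were longer than most, and fold changes followed transcript length across all genes, as the plot of fold change against length shows. The longest transcript of the 55 genes had a median of 4589 bases, against 3353 for the 13396 protein-coding genes tested. Among all protein-coding genes the median log2 fold change went from 0.37 in the shortest of 10 bins of length, with a median of 1052 bases, to −0.31 in the longest, with a median of 8183 bases. Of the 28 transporter genes with the longer transcripts 22 were lower, and their median was −0.32 on the log2 scale. The 27 with the shorter transcripts had a median of −0.031, and 15 were lower. When each library's trend of log2 count on transcript length was removed, the medians were −0.09 and −0.10. Over all 55 genes the median was then −0.094 against 0.005 for all genes, and 34 were lower. At an unadjusted p under 0.05 there were then 6 lower (10.9%), where 7.04% of all genes were lower, and 3 higher (5.45%), where 8.48% were higher. The 6 were *Abca6*, *Abcc9*, *Abcc2*, *Slc22a3*, *Slco2b1* and *Abcb4*. The 3 higher were *Abcc4*, *Abcg2* and *Slc22a15*, with log2 fold changes of 0.34, 0.30 and 0.30 on this scale and of 0.15, 0.10 and 0.059 as counted. The slope on length was lower in most livers labelled *Srsf10-kd*, but *Ctrl* 3, at −0.03, lay below *Srsf10-kd* 1 and 2, both at −0.02. The part of the length trend in these fold changes was not tested beyond its removal.

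*Abca6* had the largest difference among the tested transporter genes. It belongs to a subgroup of ABCA proteins, thought to act in lipid transport, whose 5 genes lie side by side on chromosome 11 between 109932190 and 110337716 (GRCm38), all on the minus strand. *Abca6* (ENSMUSG00000044749, chromosome 11, 110176820 to 110251776) was at 121, 132, 59.4 and 119 CPM in livers of the *Srsf10-kd* label and at 209, 283, 246 and 258 CPM in *Ctrl* livers. The means were 108 ± 32.8 CPM and 249 ± 30.9 CPM (SD, n = 4), and the highest liver labelled *Srsf10-kd* lay well below the lowest *Ctrl* liver. The log2 fold change was −1.21 (standard error 0.23), a level of 43.3% of *Ctrl*, for which edgeR's quasi-likelihood test gave an adjusted p of 0.0852. With the length trend removed it was −1.06, and over the fits that leave out 1 liver each it ran from −1.32 to −1.0, the last without *Srsf10-kd* 3, where its level was lowest.

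The 4 neighbours of *Abca6* were lower by less. *Abca5*, a lysosomal protein, was at 6.59, 8.09, 5.35 and 7.84 CPM against 8.78, 11.8, 10.3 and 8.99 CPM, with no overlap (log2 fold change −0.52, standard error 0.16, adjusted p = 0.144 in edgeR's test). *Abca9* was at 1.58 to 3.52 CPM against 3.04 to 4.21 CPM (−0.54, standard error 0.23). *Abca8b* was at 33.9 to 53.2 CPM against 51.0 to 69.3 CPM (−0.39, standard error 0.16), and *Abca8a* at 33.2 to 63.3 CPM against 38.6 to 89.3 CPM (−0.44, standard error 0.26). The groups overlapped for these last 3 genes. With the length trend removed, the values of *Abca5*, *Abca9*, *Abca8b* and *Abca8a* were −0.25, −0.32, −0.13 and −0.26, and none of the 4 then had an unadjusted p under 0.05. The transcripts of the 5 genes share few 75-base stretches, at most 0.84% in *Abca8b*, and *Abca6* shares none with another gene.

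Of 12 tested ABCA and ABCG genes listed for lipid transport, 11 were lower and 4 of these had an unadjusted p under 0.05. These 4 lie in the chromosome 11 cluster. Of all genes, 48.7% were lower by sign and 10.6% were lower at that p. With the length trend removed, 9 of the 12 were lower and 1 (*Abca6*) had an unadjusted p under 0.05. The shares of all genes were then 49.2% and 7.04%. The median of the 12 was −0.38 as counted and −0.14 with the length trend removed (log2). *Abca1* was at 146, 152, 129 and 130 CPM in livers of the *Srsf10-kd* label and 184, 198, 122 and 192 CPM in *Ctrl* livers. *Ctrl* 3 was the lowest of all 8 livers and the other 3 *Ctrl* livers were the highest. The log2 fold change of *Abca1* was −0.32 (standard error 0.16, unadjusted p = 0.0683 in edgeR's test), −0.46 without *Ctrl* 3 and 0.028 with the length trend removed, with a transcript of 10262 bases. *Abcg1*, which exports cholesterol to HDL, was at 4.29 to 5.06 CPM against 4.12 to 5.51 CPM, a log2 fold change of −0.037 (standard error 0.13).

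**Figure D3:**
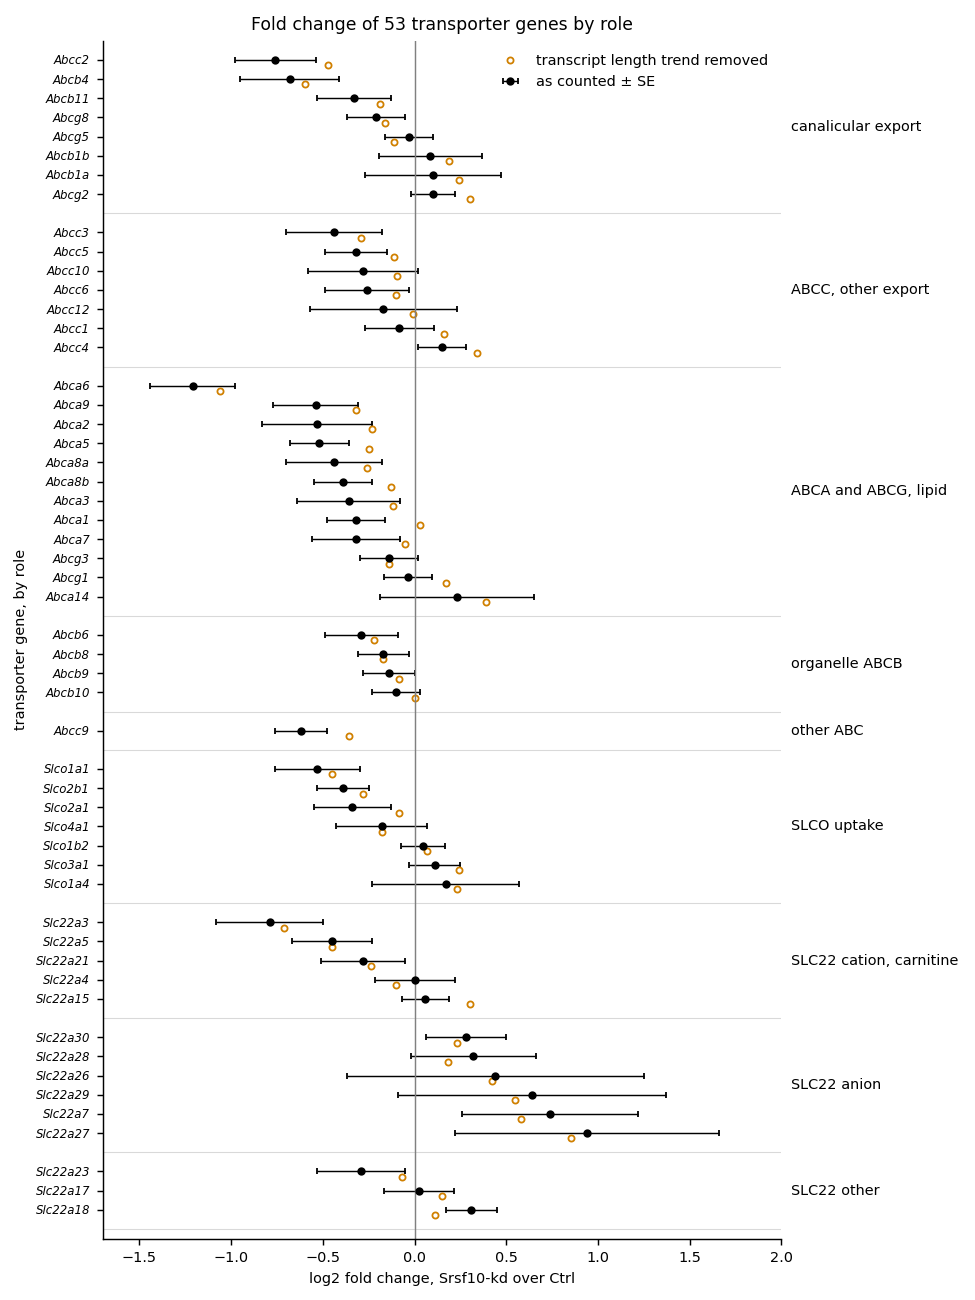
Log2 fold change of the livers labelled *Srsf10-kd* over *Ctrl* livers for 53 of the 55 tested transporter genes, grouped by role, with black points and bars for edgeR's estimate and its standard error and open orange points for the estimate with the length trend removed. The 6 SLC22 anion carriers lie above 0 with wide errors, though 4 of them turn negative without *Srsf10-kd* 2 or 3 and 5 under limma-voom, and *Abca6* has the lowest value at −1.21.

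The canalicular export pumps spanned log2 fold changes of −0.76 to 0.10. Among the 8 genes of this list, 5 were lower, 2 of them (*Abcc2* and *Abcb4*) at an unadjusted p under 0.05, and the median log2 fold change was −0.12. Over all genes, 48.7% were lower by sign and 10.6% were lower at that p. *Abcc2* (ENSMUSG00000025194, chromosome 19, 43782192 to 43840740, plus strand) encodes MRP2, which secretes bilirubin glucuronides, glutathione conjugates and other organic anions into bile. It was at 383, 446, 238 and 337 CPM in livers of the *Srsf10-kd* label and at 604, 679, 403 and 685 CPM in *Ctrl* livers. The groups overlapped through *Ctrl* 3 alone, which lay below *Srsf10-kd* 2. The means were 351 ± 87.5 CPM and 593 ± 132 CPM (SD, n = 4). In log2 terms the difference was −0.76 (standard error 0.22), a level of 59.2% of *Ctrl*, for which edgeR's quasi-likelihood test gave an adjusted p of 0.133, and its exact permutation p was 0.0571. It was −0.90 without *Ctrl* 3, −0.61 without *Srsf10-kd* 3 and, for a transcript of 8027 bases, −0.47 with the length trend removed. The coding transcript has 32 exons, and intron 2 is the longest of its 31 introns, with 12095 bases (43784357 to 43796451). Transcripts that end within an intron, a question the study asked about *Abcc2*, are not separated from full-length ones in counts per gene and were not analysed here.

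*Abcb4* (ENSMUSG00000042476, chromosome 5, 8893717 to 8959231, plus strand), which moves phosphatidylcholine into bile, was at 565, 404, 222 and 528 CPM against 583, 608, 675 and 892 CPM. The groups did not overlap, though *Srsf10-kd* 1 and *Ctrl* 1 were close. The means were 430 ± 154 CPM and 689 ± 140 CPM (SD, n = 4). In log2 terms the difference was −0.68 (standard error 0.27) with an adjusted p = 0.195 from edgeR. It was −0.46 without *Srsf10-kd* 3 and −0.60 with the length trend removed. *Abcb11* (ENSMUSG00000027048, chromosome 2, 69238282 to 69342616, minus strand), the bile salt export pump, was at 261, 368, 190 and 283 CPM against 393, 403, 287 and 306 CPM. *Srsf10-kd* 2 lay above the lowest pair of *Ctrl* livers, and the log2 fold change of −0.33 had a standard error of 0.20 (adjusted p = 0.334, edgeR). It was −0.19 without *Srsf10-kd* 3, −0.51 at the lowest when 1 liver was left out, and −0.19 with the length trend removed. The ratio of *Abcc2* to *Abcb11*, each as CPM per kb, was 0.745 to 0.917 in the livers labelled *Srsf10-kd* and 0.877 to 1.40 in *Ctrl* livers (exact permutation p = 0.0571).

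The stretches directly before these 2 genes are shown because *Abcc2* and *Abcb11* are the canalicular pumps for conjugates and for bile salts, with fitted levels of 59.2% and 79.3% of *Ctrl* (the difference between the 2 was tested only as their ratio). Of the 81 genes, 67 had a window in the RefSeq promoter table (GRCm38.p6). Only bases before the GENCODE gene start were taken, 134 for each gene, at chr19:43782058-43782191 (plus strand) and chr2:69342617-69342750 (minus strand). Capitals mark matches, on either strand, to AGGTCA (the hexamer of many nuclear receptor sites, TGACCT on the other strand) or GATAA (the core of GATA factor sites, TTATC on the other strand).
Abcc2: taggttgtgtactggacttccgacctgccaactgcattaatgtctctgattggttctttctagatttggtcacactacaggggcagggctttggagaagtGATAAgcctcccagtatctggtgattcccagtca
Abcb11: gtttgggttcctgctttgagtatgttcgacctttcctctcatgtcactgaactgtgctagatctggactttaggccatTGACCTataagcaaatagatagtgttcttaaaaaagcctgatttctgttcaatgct
The *Abcc2* stretch held GATAA 34 bases before the gene start, and the *Abcb11* stretch held TGACCT 56 bases before it. Among the 32851 windows of the table, cut to the 134 bases before the RefSeq start, 11.8% held GATAA and 7.6% AGGTCA on either strand. A match is a run of letters and no evidence of binding.

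*Abcg5* and *Abcg8* encode the 2 subunits of the canalicular sterol exporter and are transcribed away from each other on chromosome 17. *Abcg5* was at 76.3, 84.0, 67.2 and 70.3 CPM in livers of the *Srsf10-kd* label and 89.1, 82.9, 69.9 and 62.4 CPM in *Ctrl* livers, and *Abcg8* at 75, 85.7, 62.2 and 76.7 CPM against 108, 89.6, 66.8 and 82.1 CPM. Both pairs of groups overlapped, with log2 fold changes of −0.031 (standard error 0.13) and −0.21 (standard error 0.16). Their ratio per kb was 1.43 to 1.68 and 1.18 to 1.63 (exact permutation p = 0.20), so *Abcg5* had the higher level per kb in all 8 livers. That order rests on the annotated lengths of 2351 bases for *Abcg5* and 3667 for *Abcg8*. In CPM neither gene was the higher in all 8 livers. The pair is shown by the whole stretch of 109 bases between the 2 RefSeq starts (GRCm38.p6, chr17:84683012-84683120, in the direction of *Abcg8*), with GATA cores in capitals. For *Abcg8* the RefSeq start nearest to that of *Abcg5* was taken. The GENCODE model of *Abcg8* begins further upstream, at 84676302, so it overlaps *Abcg5* and covers this stretch.
Abcg5-Abcg8: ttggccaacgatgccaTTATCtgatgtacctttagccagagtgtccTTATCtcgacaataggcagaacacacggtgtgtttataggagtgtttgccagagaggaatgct
Both matches are TTATC, 93 and 63 bases before that RefSeq start of *Abcg8*, and 9.4% of windows of 109 bases in the table held this core on either strand. AGGTCA, held by 6.4% of windows, did not occur in it.

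The other 3 canalicular genes, *Abcg2*, *Abcb1a* and *Abcb1b*, had log2 fold changes of 0.10, 0.10 and 0.085. *Abcg2*, a urate and xenobiotic exporter, was at 154, 121, 146 and 160 CPM against 147, 124, 131 and 141 CPM (log2 fold change 0.10, standard error 0.12). *Abcb1a*, which encodes the drug pump P-glycoprotein, was at 5.38 CPM in *Srsf10-kd* 2 and at 2.01 to 2.26 CPM in the other 3 livers of that label, against 1.58 to 4.12 CPM in *Ctrl* livers. The estimate was 0.10 on the log2 scale (standard error 0.37), and −0.37 without *Srsf10-kd* 2. Its transcripts share 17.1% of their 75-base stretches with other genes, mainly its paralog *Abcb1b*, so counts of the pair are uncertain.

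Of the 7 tested ABCC genes listed for export on the sinusoidal side or in other cells, 6 were lower and none had an unadjusted p under 0.05, with a median of −0.26 (log2). By sign, 48.7% of all genes were lower. *Abcc3*, which returns bile acid and bilirubin conjugates to the blood, was at 212, 344, 164 and 235 CPM against 380, 408, 205 and 302 CPM. *Ctrl* 3 lay among the livers labelled *Srsf10-kd*, and *Ctrl* 4 lay below *Srsf10-kd* 2. For *Abcc3* the log2 fold change of −0.44 had a standard error of 0.26 (adjusted p = 0.323, edgeR). It ran from −0.67 to −0.30 when 1 liver was left out, the last without *Srsf10-kd* 3, and was −0.29 with the length trend removed. *Abcc6*, which releases ATP from hepatocytes and is mutated in pseudoxanthoma elasticum, was at 91.5 to 158 CPM against 87.7 to 168 CPM (−0.26, standard error 0.23), and was −0.44 without *Ctrl* 3, −0.15 without *Srsf10-kd* 3 and −0.10 with the length trend removed. *Abcc4*, a pump for bile acids, cyclic nucleotides and prostaglandins, was low in all 8 livers, at 3.4 to 3.88 CPM against 2.97 to 3.78 CPM (0.15, standard error 0.13). The ratio of *Abcc3* to *Abcc2* per kb was 0.887 to 1.24 in the livers labelled *Srsf10-kd* and 0.707 to 1.01 in *Ctrl* livers (exact permutation p = 0.0857).

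*Abcc9* (ENSMUSG00000030249, chromosome 6, 142587862 to 142702315, minus strand) encodes SUR2, the regulatory subunit of ATP-sensitive potassium channels rather than a pump. It was at 17.3, 15.1, 13.7 and 13.9 CPM in livers of the *Srsf10-kd* label and at 18.9, 23.6, 21.3 and 28.4 CPM in *Ctrl* livers, with no overlap. The means were 15.0 ± 1.66 CPM and 23.1 ± 4.02 CPM (SD, n = 4), giving a log2 fold change of −0.62 (standard error 0.14, adjusted p = 0.115 in edgeR's quasi-likelihood test). It was −0.36 with the length trend removed. The 6 stellate cell markers summed to 168 to 286 CPM against 188 to 208 CPM. Most of this sum was *Dcn*, at 109 to 214 CPM against 112 to 152 CPM. By sign, 3 of the 6 markers were lower and 3 higher. The 5 *Abcb* genes of organelle membranes, among them *Abcb8* and *Abcb10* of the mitochondrion, were lower by sign as counted, at log2 fold changes of −0.29 to −0.10, with no unadjusted p under 0.05. *Abcb6* shares 47.5% of its 75-base stretches with an overlapping gene model on the same strand and is uncertain.

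Of the 7 tested *Slco* genes, 4 were lower and 2 of these (*Slco1a1* and *Slco2b1*) had an unadjusted p under 0.05. Among all genes, 48.7% were lower by sign and 10.6% were lower at that p. *Slco1b2* (ENSMUSG00000030236, chromosome 6, 141629518 to 141686646, plus strand), the most abundant, was at 1627, 1831, 2046 and 1575 CPM against 1736, 1750, 1740 and 1630 CPM. The livers labelled *Srsf10-kd* lay on both sides of the narrow *Ctrl* range, and the log2 fold change was 0.046 (standard error 0.12). *Slco1a1* (ENSMUSG00000041698, chromosome 6, 141907282 to 141946962, minus strand) was at 327, 219, 386 and 370 CPM against 491, 373, 657 and 357 CPM. *Ctrl* 3 was the highest and *Srsf10-kd* 2 the lowest, and the log2 fold change of −0.53 (standard error 0.23, adjusted p = 0.222 in edgeR's test) was −0.32 without *Ctrl* 3. *Slco2b1* (ENSMUSG00000030737, chromosome 7, 99657804 to 99711340, minus strand), a carrier of steroid sulfates and drugs, was at 118, 139, 94.8 and 126 CPM against 163, 152, 137 and 173 CPM. The 2 groups met at *Srsf10-kd* 2 and *Ctrl* 3, and the log2 fold change of −0.39 had a standard error of 0.14 (adjusted p = 0.167, edgeR) and became −0.28 with the length trend removed. *Slco2a1*, the prostaglandin carrier, was at 28.6 to 53.5 CPM against 39.3 to 66.3 CPM (−0.34, standard error 0.21), and was −0.19 without *Srsf10-kd* 3 and −0.086 with the length trend removed. *Slco1a4*, a carrier of bile acids and cardiac glycosides, was at 101 CPM in *Srsf10-kd* 2 and at 26.8 to 33.9 CPM in the other 3 livers of that label, against 34.0 to 60.3 CPM in *Ctrl* livers. The estimate was 0.17 on the log2 scale (standard error 0.40), and −0.48 without *Srsf10-kd* 2.

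The 6 tested organic anion carriers (*Slc22a7*, *Slc22a26*, *Slc22a27*, *Slc22a28*, *Slc22a29* and *Slc22a30*) had positive log2 fold changes of 0.28 to 0.94, with a median of 0.54 and no unadjusted p under 0.05. The highest value of each came from *Srsf10-kd* 2 or 3, and the sign did not hold across settings. limma-voom with sample quality weights gave values of −0.46 to −0.015 for 5 of the 6 and 0.005 for *Slc22a7*. Without *Srsf10-kd* 2 the log2 fold changes of *Slc22a26*, *Slc22a27* and *Slc22a29* were −1.04, −0.061 and −0.33, and without *Srsf10-kd* 3 that of *Slc22a28* was −0.12. *Slc22a7*, which carries anions such as orotate and glutamate, was at 24.2, 36.2, 73.8 and 12.9 CPM against 36.0, 17.8, 21.5 and 12.7 CPM, with the highest value in *Srsf10-kd* 3. Its log2 fold change was 0.74 (standard error 0.48), and 0.15 without that liver. *Slc22a27* was at 14.5 CPM in *Srsf10-kd* 2 and at 0.632 to 5.97 CPM in the other 7 livers. *Slc22a30*, the most abundant of the 6, was at 85.8 to 156 CPM against 68.5 to 118 CPM (0.28, standard error 0.22, and 0.069 without *Srsf10-kd* 3). The last 5 of these genes lie in 1 tandem cluster on chromosome 19. *Slc22a28* and *Slc22a30* share 44.8% and 26.7% of their 75-base stretches with other genes, mostly each other and their neighbours, so their separate counts are uncertain. The same holds for *Slc22a27* and *Slc22a29*, which share 16.3% and 15.8% with other genes, among them each other.

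The cation and carnitine carriers were mostly lower by sign, 4 of 6, with a median log2 fold change of −0.15. *Slc22a5*, the high-affinity carnitine carrier, was at 103, 74.3, 50.9 and 107 CPM against 96.2, 110, 119 and 134 CPM. *Srsf10-kd* 2 and 3 lay below all other livers, and the log2 fold change of −0.45 had a standard error of 0.22 (adjusted p = 0.259, edgeR) and became −0.27 without *Srsf10-kd* 3. Its transcripts share 17.1% of their 75-base stretches with *Slc22a21*. *Slc22a3* (ENSMUSG00000023828, chromosome 17, 12418960 to 12507704, minus strand), an extraneuronal monoamine carrier, was at 6.38, 5.98, 2.74 and 4.06 CPM against 5.05, 8.41, 9.11 and 10.6 CPM (−0.79, standard error 0.29, adjusted p = 0.176 in edgeR's test). It overlaps *Plg*, an abundant liver gene, on the opposite strand and shares 7.71% of its stretches with it, and since the strand column behind the counts is not given, its value is uncertain. *Slc22a18*, an orphan member of neither set, was at 77.0, 92.1, 118 and 88.7 CPM against 84.5, 78.0, 74.0 and 66.8 CPM (0.31, standard error 0.14). It was 0.18 without *Srsf10-kd* 3 and 0.11 with the length trend removed.

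The 8 livers differed in how often they were lowest or highest, as the map of deviations from each gene's mean shows. *Srsf10-kd* 3 was the lowest of the 8 livers for 21 of the 55 genes, and *Ctrl* 4 the highest for 18 and the lowest for 11. The number of genes below their mean over the 8 livers was 39, 23, 36 and 41 for *Srsf10-kd* 1 to 4 and 14, 9, 36 and 21 for *Ctrl* 1 to 4. *Srsf10-kd* 2 was the highest for 8 genes, and for 5 of these, *Slco1a4*, *Abcb1a*, *Slc22a26*, *Slc22a27* and *Slc22a29*, *Ctrl* 2 was the next highest, as it was for 18 of the 55 genes. In these 2 livers *Slc22a26* was at 8.57 and 4.45 CPM, against 0.492 to 2.37 CPM in the other 6. The same replicate number is not a shared animal, and these 5 genes were singled out after their values were seen.

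**Figure D4:**
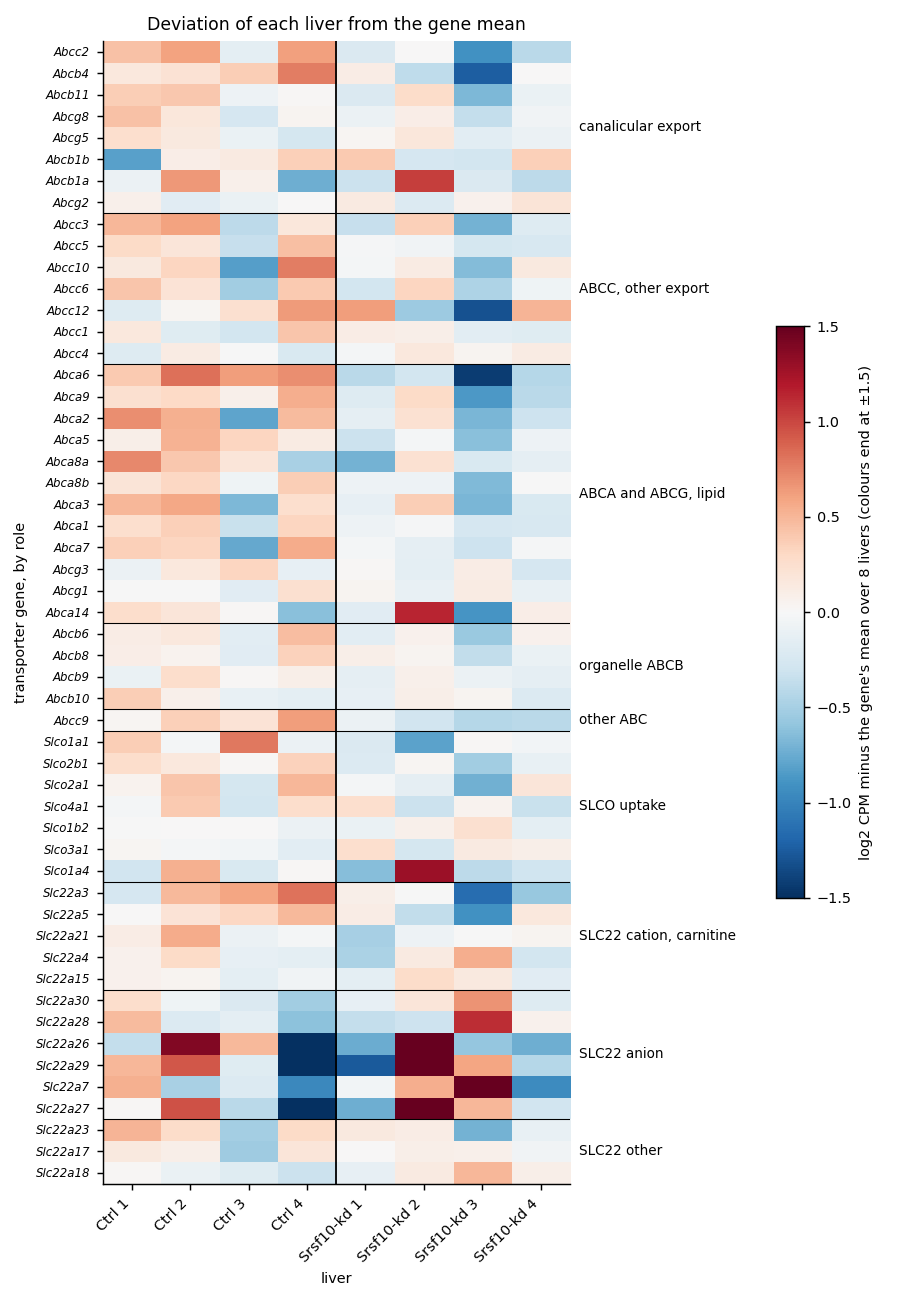
Log2 CPM of 53 of the 55 tested transporter genes in each liver minus the mean of the gene over the 8 livers, in columns for *Ctrl* 1 to 4 and *Srsf10-kd* 1 to 4 and rows by role, with red above and blue below the mean and colours ending at ±1.5. *Srsf10-kd* 3 is blue for most ABC genes, being the lowest of 8 livers for 21 genes, and *Srsf10-kd* 2 is red for a few carriers such as *Slco1a4* and *Slc22a27*.

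A list of 29 other genes of bile transport, canalicular trafficking and transporter control had 28 tested, of which 19 were lower. Their median was −0.09 on the log2 scale, with no call at an adjusted p under 0.05 in edgeR's test. At an unadjusted p under 0.05, 6 were lower (among them *Slc47a1*, *Myo5b*, *Nr1i2*, *Hnf4a* and *Rxra*) and 2 higher (*Slc51a*, *Rab11a*). Of all genes, 48.7% were lower by sign, and at that p 10.6% were lower and 11.2% higher. *Myo5b* and *Rab11a*, a motor and a GTPase that carry canalicular pumps to the membrane, had log2 fold changes of −0.58 (standard error 0.17) and 0.44 (standard error 0.14). *Hnf4a*, which encodes a factor of hepatocyte gene control, had −0.50 (standard error 0.17), and *Rxra*, the shared partner of several receptors, −0.48 (standard error 0.20). *Nr1i2*, the xenobiotic receptor PXR, was at 98.9 to 106 CPM against 112 to 130 CPM (−0.24, standard error 0.10), and the cation exporter *Slc47a1* had −0.30 (standard error 0.13). *Slc51a*, the basolateral bile acid exporter subunit, was at 0.311 to 0.680 CPM against 0.196 to 0.298 CPM (0.89, standard error 0.31), which is at most 39 counts in any liver. *Slc10a1*, the sodium-dependent bile salt uptake carrier of the sinusoidal membrane, was at 648, 682, 647 and 556 CPM against 671, 608, 827 and 633 CPM (−0.11, standard error 0.13), and *Nr1h4*, the bile acid receptor FXR, had −0.13 (standard error 0.10). The groups overlapped for *Myo5b*, *Hnf4a*, *Rxra* and *Slc47a1*. With the length trend removed, *Myo5b*, *Hnf4a* and *Rxra* had −0.33, −0.39 and −0.33. Of the 28 genes, 20 were then lower by sign, with 6 lower and 2 higher at an unadjusted p under 0.05. Over all genes in that fit, 49.2% were lower by sign, and at that p 7.04% were lower and 8.48% higher.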

How the data were processed

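Directional poly(A) libraries of 8 livers were read as pairs. The authors aligned them to GRCm38 with STAR 2.7.7a and deposited whole-number counts per Ensembl gene, not normalized. The strand column and annotation release are not given in the sources used here. Counts were analysed in R 4.3.3 with edgeR 4.0.16 (TMM, filterByExpr, two-sided quasi-likelihood test on condition, Benjamini-Hochberg adjusted p under 0.05 over 15491 genes), a test checked on simulated data. Alternatives were DESeq2 1.42.0, limma-voom (limma 3.58.1), other scalings and filters, a replicate block, fits without 1 liver each, and removal of each library's lowess trend (span 0.5) on transcript length or GC content. GENCODE M21 (GRCm38) held 45143 of 45706 identifiers. Exact permutation tests over 70 assignments were two-sided. CPM per kb uses the longest transcript. Over 28 pairs of livers, chi-square divided by its degrees of freedom was at least 51.0, so no library is a duplicate. Genes named with values are *Abcc2*, 21 transporters of known liver function, members with an unadjusted p under 0.05 or a DESeq2 call, and the 10 highest per kb. *Srsf10* and *Ppara* are given once. A few others were named after their values were seen, and a few genes are counted but not reported here. The members and lists were chosen with earlier results of these data known. Intronic polyadenylation and splicing need reads and were not analysed here.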

Additional observations from a re-analysis of the deposited data

Results flagged for a closer look

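Among the 28 tested transporter genes named by rule, each group of 4 livers was examined for 1 liver far from the other 3 (Dixon's test at the 95% level, on the gap to the nearest neighbour over the whole range). This marked 4 of 56 groups, where chance marks about 1 in 20, or 2.8. *Slco1a4* was at 101 CPM in *Srsf10-kd* 2 and at 26.8 to 33.9 CPM in the other 3 livers of that label. *Abcb1a* was at 5.38 CPM in the same liver and at 2.01 to 2.26 CPM in the other 3. *Abca8b* was at 33.9 CPM in *Srsf10-kd* 3 and at 50.7 to 53.2 CPM in the other 3. *Slco1b2* was at 1630 CPM in *Ctrl* 4 and at 1736 to 1750 CPM in the other 3 *Ctrl* livers, a narrow range.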

How the results depend on the processing

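The count of transporter genes called was 0 in edgeR's quasi-likelihood test, with 10 at an unadjusted p under 0.05. It was 3 with DESeq2, 6 with limma-voom and 1 (*Abca6*) without the filter on low counts, and ran from 0 to 2 over the fits that leave out 1 liver each. The number at an unadjusted p under 0.05 was 18 with the replicate block and ran from 7 to 18 over those fits, with 18 without *Ctrl* 3. Of all genes, 21.8% had an unadjusted p under 0.05 in edgeR's test on all livers without the block, 28.0% with the block and 28.0% without *Ctrl* 3. The block called 59 genes of the whole table against 11 without it, and 0 transporter genes. Of all genes, DESeq2 called 819, limma-voom 1814, edgeR without the filter 46, the block with the length trend removed 4, and the fits without 1 liver 0 to 544 (544 without *Ctrl* 3, 64 without *Srsf10-kd* 3). Deviations of same-numbered livers correlated at −0.18, 0.21, 0.27 and 0.22. Without values for differently numbered livers, these correlations cannot decide whether the numbers pair the livers. The main fit used no block. The median log2 fold change over members ran from −0.31 to −0.13 when 1 liver was left out. *Slco1a4*, at 0.17, ran from −0.48 without *Srsf10-kd* 2 to 0.38 without *Ctrl* 2. Over 18 settings the 28 named genes gave 504 values, of which 20, in 8 genes, had the other sign; the cause was not tested. *Slc22a26* to *Slc22a29* are not among the 28. Low-count genes such as *Abca14*, with 6 to 25 counts per liver, limit what the depth can show.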
